A study of Mus musculus with 57 samples.

Results

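The messages of 10 glycolytic isozyme genes, of 21118 genes measured, were followed in ribosome-bound RNA of mouse cortical astroglia from birth to adulthood. The genes, chosen by symbol, are the hexokinases Hk1 and Hk2, the phosphofructokinase subunits Pfkl, Pfkm and Pfkp, the aldolases Aldoa and Aldoc, the enolases Eno1 and Eno2, and the pyruvate kinase Pkm, and all 10 passed the filter on low counts. The mice carried the Aldh1l1-L10-GFP transgene, a ribosomal protein fused to green fluorescent protein driven by the astrocyte gene Aldh1l1, in C57BL/6 mice. All groups shared this genotype and conventional housing, and none was treated. Whole cortex was homogenized with cycloheximide, which holds ribosomes on their messages, and the tagged polysomes were pulled down with an antibody to GFP (translating ribosome affinity purification). The astroglia of the study are thus the cells in which this 1 reporter line expresses the tag.

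The 53 libraries, each from 1 animal, fell into 12 groups of sex and age. Postnatal day 1 (P1) had 8 libraries, P4 had 8, P7 had 12, P14 had 10 and P35 had 6, and 9 came from adults, whose age in days the labels do not give. Females made up 4, 4, 8, 5, 3 and 4 of these and males 4, 4, 4, 5, 3 and 5. The labels also give each library a replicate number, whose first digit (1, 2, 3, 4 or 6) is called its set here, and 4 libraries at P7 came from a second sequencing run alone. The labels do not say what the numbers stand for.

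Total counts ran from 14768178 to 48541139 per library, with a median of 24033399. Genes with 10 or more counts numbered 15531 or more in all but 3 libraries of set 4, which were P1 female 4 (10085 genes), P7 female 40 (13834) and P14 male 4 (14530). In 12 libraries the Y-linked genes Ddx3y, Eif2s3y, Kdm5d and Uty went against the label of sex, with a sum under 50 CPM (counts scaled to the same total in every library) in 5 libraries labelled male or over 1 CPM in 7 labelled female. The sum of 15 mature astrocyte markers, led by Glul and Gfap, ranged from 746 to 13792 CPM in sets 1, 2 and 4 (29 libraries) and from 520 to 7526 CPM in sets 3, 6 and the second run alone (24 libraries). The sum of 15 neuronal markers, led by Snap25 and Stmn2, ranged from 1663 to 7864 CPM in the former and from 5482 to 13333 CPM in the latter. Among the astrocyte markers, Aldh1l1 itself was found in every library (10.1 to 422 CPM) and Slco1c1 was at 0 in 1 library. Neuronal messages were thus present in all libraries beside those of astrocytes. The set is a term in the model unless stated otherwise.

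Glycolysis splits glucose into pyruvate and yields ATP without oxygen, and astrocytes are known for a high glycolytic rate and for release of lactate. Several of its steps are run by isozymes coded by different genes. Aldoc is a classical astrocyte marker in the brain, while Eno2 is known as neuron-specific enolase. Hexokinase, phosphofructokinase and pyruvate kinase catalyse the steps at which the pathway is regulated.

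Promoter windows of the members are shown first. Several of these genes are known targets of hypoxia-inducible factor (HIF), whose part in the changes with age was not tested. Each window runs from 250 bases before to 50 bases after an annotated start, from RefSeq on GRCm38.p6, and the tables held 20 windows for 10 of 10 members. Capitals mark ACGTG, a form of the core of the HIF motif, or its reverse complement CACGT. The word core below means this form only, and other forms were not searched. The window of Aldoc is chr11:78322823-78323122 on the plus strand, that of Aldoa is chr7:126799129-126799428, that of Eno2 is chr6:124769624-124769923 and that of Hk2 is chr6:82774405-82774704, the last 3 on the minus strand. Aldoc and Eno2 are shown as the members with the steepest rise, Aldoa as the other aldolase and Hk2 as the member without a rise.
Aldoc: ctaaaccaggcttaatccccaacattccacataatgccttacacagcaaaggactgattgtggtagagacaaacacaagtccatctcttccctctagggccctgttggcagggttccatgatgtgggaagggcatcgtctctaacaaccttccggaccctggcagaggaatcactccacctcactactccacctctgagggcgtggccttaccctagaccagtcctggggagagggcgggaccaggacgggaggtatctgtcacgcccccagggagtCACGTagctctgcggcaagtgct
Aldoa: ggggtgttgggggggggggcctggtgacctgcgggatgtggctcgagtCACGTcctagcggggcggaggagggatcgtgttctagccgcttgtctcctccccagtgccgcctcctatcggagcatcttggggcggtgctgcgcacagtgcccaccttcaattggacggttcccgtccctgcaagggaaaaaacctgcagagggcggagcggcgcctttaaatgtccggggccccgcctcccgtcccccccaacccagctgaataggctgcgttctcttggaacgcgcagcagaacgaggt
Eno2: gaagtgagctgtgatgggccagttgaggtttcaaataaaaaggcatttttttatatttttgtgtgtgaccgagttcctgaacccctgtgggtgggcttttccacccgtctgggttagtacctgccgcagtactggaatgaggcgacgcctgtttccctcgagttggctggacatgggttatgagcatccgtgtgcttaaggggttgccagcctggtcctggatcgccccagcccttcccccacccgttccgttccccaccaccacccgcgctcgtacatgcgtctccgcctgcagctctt
Hk2: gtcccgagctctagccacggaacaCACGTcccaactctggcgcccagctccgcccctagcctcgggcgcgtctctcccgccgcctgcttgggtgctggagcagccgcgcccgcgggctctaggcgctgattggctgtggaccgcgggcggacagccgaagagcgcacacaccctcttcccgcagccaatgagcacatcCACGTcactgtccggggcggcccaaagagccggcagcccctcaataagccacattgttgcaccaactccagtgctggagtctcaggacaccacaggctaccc
The core stood once in the windows shown for Aldoc and Aldoa, 2 times in that of Hk2, and not in that of Eno2. Aldoc and Aldoa each have a further annotated start whose window, at chr11:78323948-78324247 and chr7:126800398-126800697, holds no core. In all, 8 of the 20 windows, some of which overlap, held it on either strand, against 19.62% of 32851 windows of the same length. They belong to Aldoa, Aldoc, Hk1, Hk2, Pfkm and Pkm. The GC box GGGCGG, searched on both strands, stood 3 times in the windows shown for Aldoa and Hk2, once in that of Aldoc and not in that of Eno2, and 35.66% of all windows held it. TATAAA, also searched on both strands, matched in the window of Eno2, as its reverse complement TTTATA, and in none of the other 19, against 13.62% of all windows. These motifs do not overlap one another in their letters, and a match is a description of the sequence.

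The genes lie on 8 chromosomes, with positions from GENCODE M21 on GRCm38. Aldoc (ENSMUSG00000017390) spans chr11:78322968-78327781 on the plus strand, and Aldoa (ENSMUSG00000030695) spans chr7:126795234-126800751 on the minus strand. Eno2 (ENSMUSG00000004267) spans chr6:124760053-124769673 and Hk2 (ENSMUSG00000000628) spans chr6:82725025-82774454, both on the minus strand. Counts are of reads in exons of these genes. Eno1 (ENSMUSG00000063524, chr4:150236721-150248879, plus strand) shares 99.39% of its coding bases with the copy Eno1b, which held 3.44% of their summed counts and between 2.94% and 3.89% in single libraries, so the level of Eno1 is uncertain by about that amount. The retrogenes Aldoart1 and Aldoart2 held 0.036% and 0.030% of their counts summed with Aldoa. Exons of Pfkp share 748 bases with Pitrm1 on the other strand, those of Hk1 share 157 bases with the antisense gene Hk1os, and those of Pfkm share 341 bases with Gm26513 on its own strand. Reads of such shared bases cannot be assigned without the counting rule.

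Set per kilobase of exon, the order of levels at P1 was led by the aldolases. Aldoc stood at 199 ± 132 CPM per kilobase (SD, n = 8) and Aldoa at 195 ± 49.4, 2 neighbours that differed by less than their SD. Pkm followed at 114 ± 47.4 and Eno1 at 75.5 ± 26.2. Pfkm, the muscle-type phosphofructokinase, was at 34.9 ± 21.4, Hk1 at 19.7 ± 14.6, Eno2 at 18.7 ± 12.1 and Pfkl at 11.5 ± 7.37. Pfkp (3.55 ± 3.29) and Hk2 (0.50 ± 0.37) closed the order. The neighbours Pkm and Eno1, Pfkm and Hk1, Hk1 and Eno2, Eno2 and Pfkl, and Pfkp and Hk2 also differed by less than the larger of their SDs. In adults Aldoc was first at 2026 ± 1011 CPM per kilobase (n = 9) and Aldoa second at 955 ± 359, followed by Pkm at 255 ± 98.8, Eno1 at 223 ± 79.5 and Eno2 at 151 ± 100. Pfkm was at 126 ± 31.4, Hk1 at 26.9 ± 14.6, Pfkl at 24.4 ± 9.11, Pfkp at 14.2 ± 8.47 and Hk2 at 0.47 ± 0.32. Pkm and Eno1, Eno1 and Eno2, Eno2 and Pfkm, and Hk1 and Pfkl were neighbours within the larger of their SDs. The order depends on the length used. Per kilobase of the coding transcript, Aldoa led at P1 at 366, ahead of Pkm at 235 and Aldoc at 233. On that scale Pfkp in adults was at 70.9, above Hk1 at 63.2 and Pfkl at 43.6, and Eno1 at 592 was above Pkm at 524.

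Between P1 and adulthood 9 of the 10 members rose and none fell, where 21.8% of all genes tested were higher in adults and 19.5% were lower (edgeR quasi-likelihood test, Benjamini-Hochberg adjusted over 21118 genes, threshold 0.05). The steepest rises were those of Aldoc, 10.2-fold, and Eno2, 8.84-fold. Hk2 was the exception. The median log2 difference of the members was 1.82, against 0.06 over all genes tested. Over the 6 ages as 1 test, the same 9 of 10 members changed, where 43.5% of all genes did, and Hk2 had an adjusted p of 0.325. Under alternative settings 6 to 9 members changed over the 6 ages, where 12.9 to 55.2% of genes tested did. Without the 12 libraries whose Y-linked genes go against the label, 9 members again rose from P1 to adult. For Aldoa, Pfkm and Eno2 the adult libraries did not overlap those of P1. The share of all genes without such overlap was not computed. In bulk samples such as these, fewer cells of a type and less RNA per cell cannot be told apart.

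**Figure D1:**
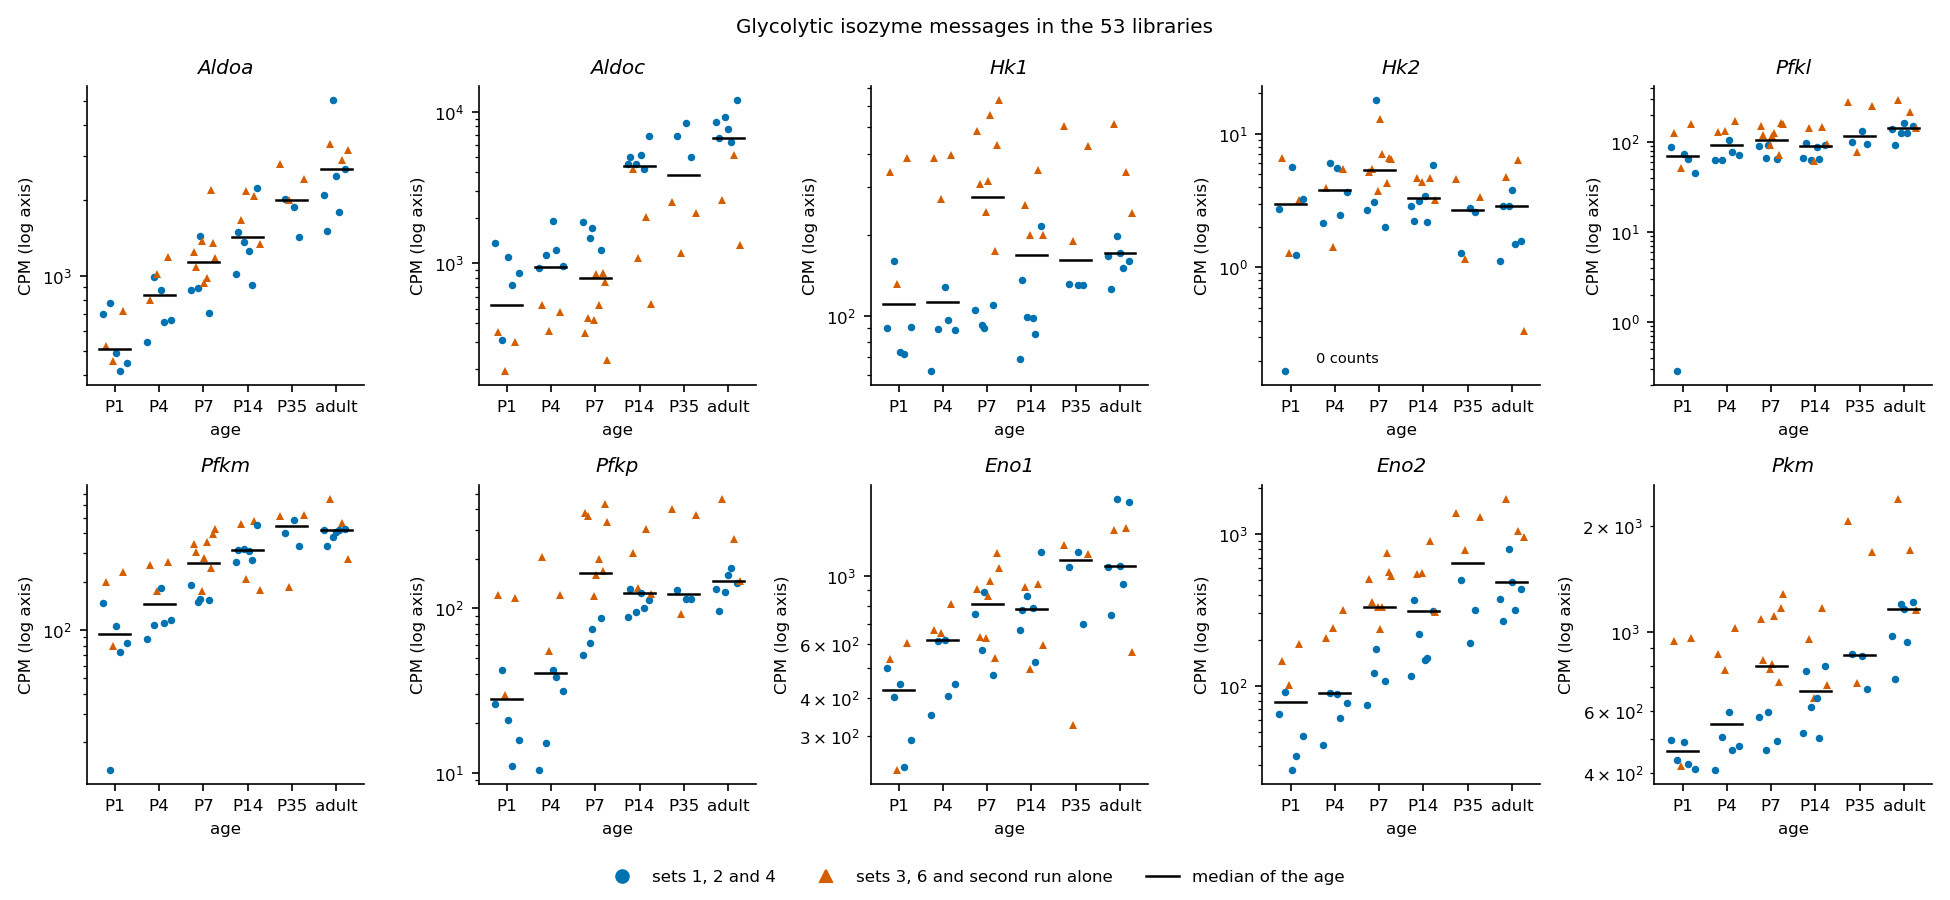
CPM of each member (log axis) in the 53 libraries by age. Circles are sets 1, 2 and 4, triangles are sets 3, 6 and the second run alone, and black bars are medians. Adult levels of Aldoa (lowest 1508 CPM) lie above every P1 level (highest 778 CPM), while those of Hk2 overlap at all ages, and a library of Hk2 with 0 counts is drawn at the foot of the axis.

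The aldolases, which split fructose 1,6-bisphosphate, rose most in absolute terms. Aldoc, the brain form, ranged from 192 to 1358 CPM at P1 with a median of 532, and from 1317 to 12033 CPM in adults with a median of 6665. The adult library that overlapped P1 was adult male 60, a set 6 library, and the other 8 lay above every P1 library. The log2 difference of Aldoc was 3.35 (SE 0.29, adjusted p = 1.98e-12). Aldoa, the form of muscle and most tissues, went from 414 to 778 CPM at P1 (median 507) to 1508 to 5045 CPM in adults (median 2657), without overlap. Its log2 difference was 2.31 (SE 0.18, adjusted p = 1.65e-13), a 4.96-fold rise. The median of Aldoa was higher at each later age, with 838 CPM at P4, 1129 at P7, 1424 at P14 and 2012 at P35.

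The enolases convert 2-phosphoglycerate to phosphoenolpyruvate. Eno1, the form of most tissues, ranged from 231 to 604 CPM at P1 (median 424) and from 563 to 1794 CPM in adults (median 1080), with adult male 60 alone inside the P1 range. Its log2 difference was 1.62 (SE 0.18, adjusted p = 8.47e-10). Eno2 ranged from 27.7 to 190 CPM at P1 (median 78.8) and from 267 to 1716 CPM in adults (median 487), without overlap. Its log2 difference was 3.14 (SE 0.23, adjusted p = 8.36e-14), nearly that of Aldoc. The rise of Eno2 came with neuronal markers, of which 10 of 15 were higher in adults and 3 were lower, and with astrocyte markers, of which 13 of 15 were higher. All 10 oligodendrocyte markers were higher too, and their summed level went from 110 to 294 CPM at P1 to 813 to 2489 CPM in adults. The summed neuronal level ranged from 1663 to 8452 CPM at P1 and from 3155 to 13333 CPM in adults, so the groups overlap. The part of these cells in the changes of the members was not tested.

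Phosphofructokinase commits sugar to glycolysis, and its 3 subunit genes all rose. Pfkm ranged from 13.4 to 230 CPM at P1 (median 94.4) and from 276 to 656 CPM in adults (median 417), without overlap, with a log2 difference of 2.03 (SE 0.24, adjusted p = 3.51e-09). Pfkp, the platelet form, went from 10.97 to 120 CPM (median 28.0) to 96.7 to 466 CPM (median 147), and 8 of 9 adult libraries lay above every P1 library. The log2 difference of Pfkp was 2.40 (SE 0.25, adjusted p = 1.94e-10). Pfkl, the liver form, rose least of the 3, from 0.281 to 158 CPM (median 69.9) to 93.2 to 299 CPM (median 144), with a log2 difference of 1.27 (SE 0.33, adjusted p = 0.00172). The lowest Pfkl value was that of P1 female 4, the library with the fewest genes detected, which held 4 counts of Pfkl, 190 of Pfkm and 595 of Pfkp. Without it the log2 difference of Pfkl was 1.02 (adjusted p = 1.98e-06). In sets 1, 2 and 4 alone, which include that library, it was 1.52 with an adjusted p of 0.0615, and the call was lost.

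The hexokinases phosphorylate glucose as it enters the cell, and theirs were the smallest changes. Hk1, the main form of brain, ranged from 72.1 to 385 CPM at P1 (median 111) and from 126 to 514 CPM in adults (median 172), and 1 adult library lay above every P1 library. Its log2 difference was 0.68 (SE 0.18, adjusted p = 0.00252), a 1.61-fold rise. With no term for the set other than that for the second run alone, it was 0.47 with an adjusted p of 0.457 by edgeR. In sets 3, 6 and the second run alone it was 0.44 with an adjusted p of 0.402 by edgeR. The call thus rests on comparison within sets and on sets 1, 2 and 4. Hk2, an inducible form, was scarce at every age. It ranged from 0 to 6.57 CPM at P1 (median 2.95) and from 0.333 to 6.39 CPM in adults (median 2.88), and the highest of all libraries was P7 female 40 at 17.9 CPM. The 0 was that of P1 female 4, where 3 counts, the limit that a count of 0 allows, would be 0.211 CPM. The log2 difference of Hk2 was 0.01 (SE 0.46, adjusted p = 0.991 by edgeR). At a threshold adjusted over all genes, a change of either sign well above that error could also have been missed.

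Pyruvate kinase makes pyruvate and ATP at the end of the pathway. Pkm ranged from 411 to 962 CPM at P1 (median 461) and from 736 to 2387 CPM in adults (median 1160), and 7 of 9 adult libraries lay above every P1 library. Its log2 difference was 1.22 (SE 0.13, adjusted p = 5.74e-10), a 2.33-fold rise. The M1 and M2 forms of Pkm come from alternative exons of 1 gene and are not separated in counts per gene.

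**Figure D2:**
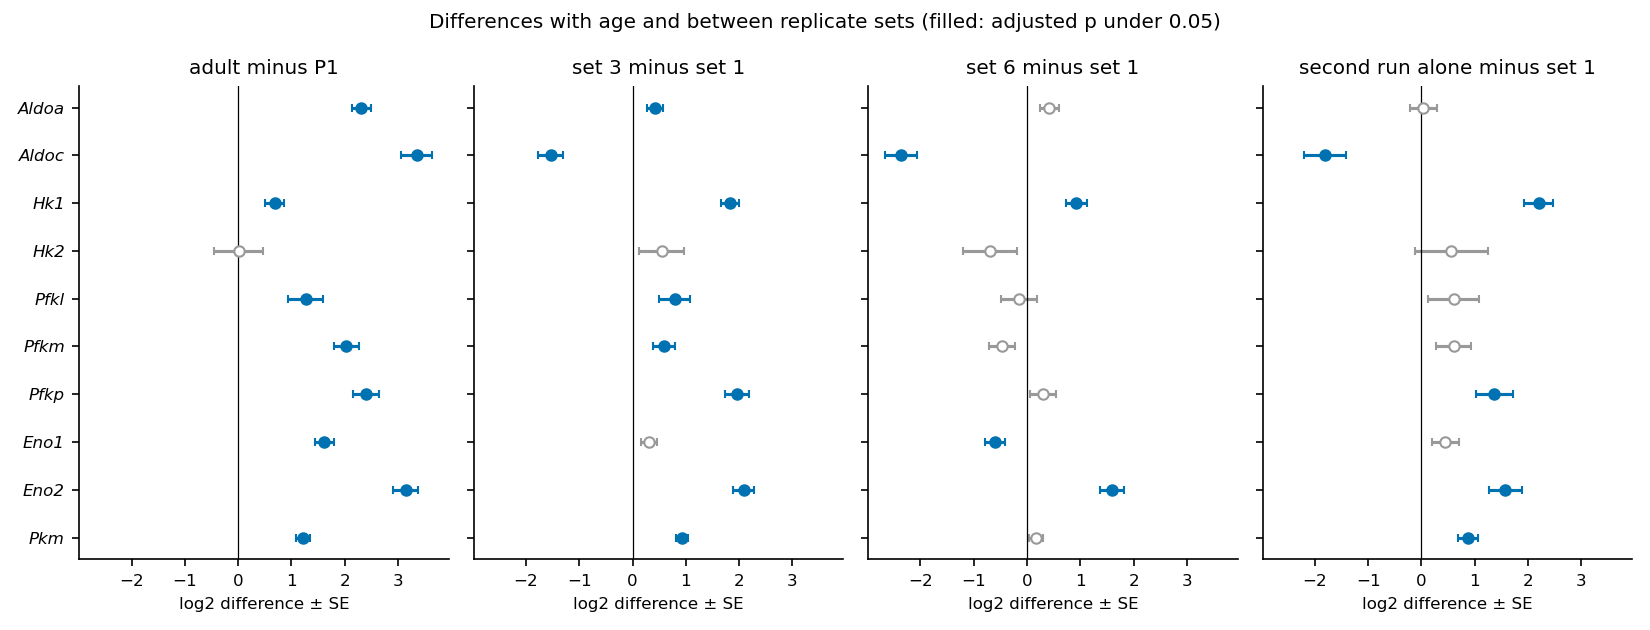
Log2 differences with SE for the 10 members from P1 to adult and for 3 groups of libraries against set 1, filled where the adjusted p was under 0.05. Aldoc is at 3.35 with age and at -1.54, -2.37 and -1.81 in set 3, set 6 and the second run alone, while Eno2 is above 0 in all 4 panels.

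Between neighbouring ages the changes of single members were few, and all lay between P4 and P14. At the step from P4 to P7, Pfkp and Eno2 rose, where 1.67% of all genes changed. Pfkp had a median of 40.2 CPM at P4 (10.3 to 206) and 165 CPM at P7 (52.2 to 432), with a log2 difference of 1.57 (SE 0.25, adjusted p = 0.000645). Eno2 had a median of 89.3 CPM at P4 (41.1 to 317) and 332 CPM at P7 (74.3 to 751), with a log2 difference of 1.07 (SE 0.23, adjusted p = 0.00931). The libraries of the 2 ages overlapped for both genes. These medians pool the sets, while the log2 differences are from the model with the set. Sets 3, 6 and the second run alone gave 3 of 8 libraries at P4 and 8 of 12 at P7. At this step 6 of 15 neuronal markers and 4 of 10 oligodendrocyte markers rose as well, and the part of those cells was not tested. Without P7 male 6, whose Eno2 level of 751 CPM was the highest at P7, the log2 difference of Eno2 was 0.87 with an adjusted p of 0.172. In sets 3, 6 and the second run alone, where 0% of all genes passed, Pfkp was at 1.64 (adjusted p = 0.123) and Eno2 at 1.18 (adjusted p = 0.149). In sets 1, 2 and 4 alone, Pfkp was at 1.78 (adjusted p = 0.00276) and Eno2 at 0.76 (adjusted p = 1). Without the 12 libraries whose Y-linked genes go against the label, 0 members passed at this step, where 0% of all genes did.

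At the step from P7 to P14 Aldoc rose, where 3.3% of all genes changed. Its median was 797 CPM at P7 (229 to 1875) and 4364 CPM at P14 (535 to 6944), with a log2 difference of 1.57 (SE 0.28, adjusted p = 0.00101). Within sets 1, 2 and 4 the libraries did not overlap, from 1224 to 1875 CPM at P7 (n = 4) to 4168 to 6944 CPM at P14 (n = 6). Within sets 3, 6 and the second run alone they did, from 229 to 866 CPM (n = 8) to 535 to 4207 CPM (n = 4), and there the log2 difference was 1.39 with an adjusted p of 0.652, where 0% of all genes passed. At this step 5 of 15 astrocyte markers rose and 3 neuronal markers fell. With no term for the set other than that for the second run alone, no member passed, where 0.019% of all genes did. Without P1 female 4 there were 2.

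The other 3 steps gave no member past the threshold in edgeR or in limma voom. From P1 to P4, where 0.44% of all genes changed in edgeR, 5 members had an unadjusted p under 0.05. These were Aldoa, Aldoc, Pfkm, Eno1 and Eno2, all higher at P4. DESeq2, which called 3.18% of all genes at this step, called 2 of these members, Aldoa and Eno1. From P14 to P35, where 1.15% changed in edgeR, Eno2 and Pkm had an unadjusted p under 0.05. DESeq2 called 0 members there and 3.71% of all genes. From P35 to adult, where 0% changed in edgeR, Aldoa, Eno1 and Pkm had an unadjusted p under 0.05. DESeq2 called 0 members there and 0.60% of all genes. Without P1 female 1, 2 members passed from P1 to P4, and without P14 female 2, 2 passed from P14 to P35. All these differences were towards the older age, from 0.36 for Pkm to 0.69 for Eno2 on the log2 scale.

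**Figure D3:**
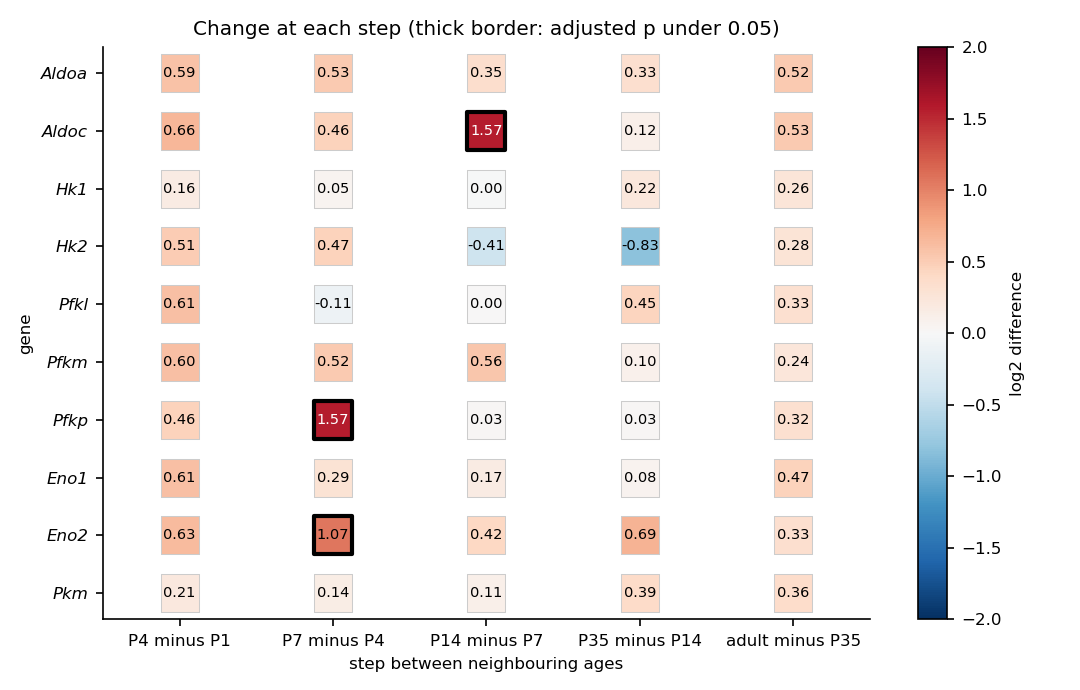
Log2 difference of each member at each step between neighbouring ages, with a thick border where the adjusted p was under 0.05. The bordered squares are Pfkp (1.57) and Eno2 (1.07) from P4 to P7 and Aldoc (1.57) from P7 to P14.

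To compare members of a family with one another, shares within each family were computed from counts per exonic kilobase. The percentages depend on this length in every family. Per kilobase of coding transcript, mean levels of Aldoa and Aldoc were 366 and 233 CPM at P1 and 1795.5 and 2373 in adults. Those of Eno1 and Eno2 were 200 and 31.4 CPM at P1 and 592 and 254 in adults. The difference in the Aldoc ratio given below was 1.16 with that length too (adjusted exact p = 0.00926). Within aldolase, Aldoc held 46.5% ± 18.5 (SD, n = 8) at P1 and 64.3% ± 18.8 (n = 9) in adults, with means of 47.8, 38.0, 63.5 and 59.1% at P4, P7, P14 and P35. The log2 ratio of Aldoc to Aldoa was 1.16 higher in adults than at P1, and higher in 4 of the 5 sets with both ages (exact two-sided permutation within sets, p = 0.00309, adjusted over 6 shares 0.00617). In sets 1, 2 and 4 the mean share was 56.0, 59.1, 59.3, 77.0, 77.1 and 74.9% from P1 to adult in order of age. In sets 3, 6 and the second run alone it was 30.6, 29.0, 27.4, 43.2, 41.0 and 43.2%. In both groups of sets the mean was thus higher from P14 on than up to P7, and the mean of the second group was lower at each age. Single libraries overlapped at P1, where P1 female 4 of set 4 had an Aldoc share of 26.3%, below the 27.1 to 37.5% of sets 3 and 6. Single steps of the shares were not tested. Without regard to sets the adjusted exact p was 0.127.

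Within enolase, Eno2 held 19.2% ± 8.53 at P1 and 38.3% ± 15.0 in adults, with means of 19.8, 30.8, 32.6 and 44.8% at P4, P7, P14 and P35. The log2 ratio of Eno2 to Eno1 was 1.48 higher in adults, and higher in 5 of 5 sets (exact permutation p = 0.000772, the smallest that 1296 arrangements allow, adjusted 0.00231). The mean share went from 14.0% to 29.2% in sets 1, 2 and 4 and from 27.8% to 56.5% in sets 3, 6 and the second run alone. The adult mean of the former was thus close to the P1 mean of the latter.

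Within phosphofructokinase, Pfkm was the main subunit message at all ages, with 68.9% ± 6.06 at P1 and 77.1% ± 4.17 in adults. Its log2 ratio to the other 2 was 0.61 higher in adults, and higher in 5 of 5 sets (exact permutation p = 0.000772, adjusted 0.00231). This share depends on the length used, because the union of Pfkp exons (13401 bases) is far longer than its coding transcript (2679 bases). Per kilobase of coding transcript the log2 ratio was 0.43 higher, with an adjusted p of 0.208. Pfkl held 20.9% ± 8.69 at P1, 23.0% at P4, 11.6% at P14 and 14.7% ± 2.33 in adults, and its log2 ratio to the others was -0.17 in adults minus P1 (adjusted p = 0.935 by the exact test). Pfkp held 10.2% ± 13.8 at P1, 12.4% at P7 and 8.21% ± 2.23 in adults, with a log2 ratio difference of 0.28 (adjusted p = 0.935 by the exact test). Per kilobase of coding transcript the mean share of Pfkp was 24.9% at P1 and 25.9% in adults, where Pfkl held 16.7%. The ratio differences of Pfkl and Pfkp given above both rest on P1 female 4, in which Pfkl held 0.588% and Pfkp 43.6% per exonic kilobase. Without it, the difference of Pfkl was -0.87 and that of Pfkp was 0.77, each with an adjusted exact p of 0.00231, so that Pfkl fell and Pfkp rose within the family.

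Within hexokinase, Hk1 held almost all of the message at each age, and Hk2 held 3.32% ± 3.09 at P1, 4.43% ± 5.73 at P7 and 1.79% ± 1.00 in adults. The log2 ratio of Hk2 to Hk1 was -0.25 in adults minus P1, lower in 3 of 5 sets (exact permutation p = 0.796, adjusted 0.935). This value, too, rests on P1 female 4, without which it was -1.08 with an adjusted exact p of 0.0417. It turned to 0.13 without P1 male 1 and to 0.10 without adult male 60.

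**Figure D4:**
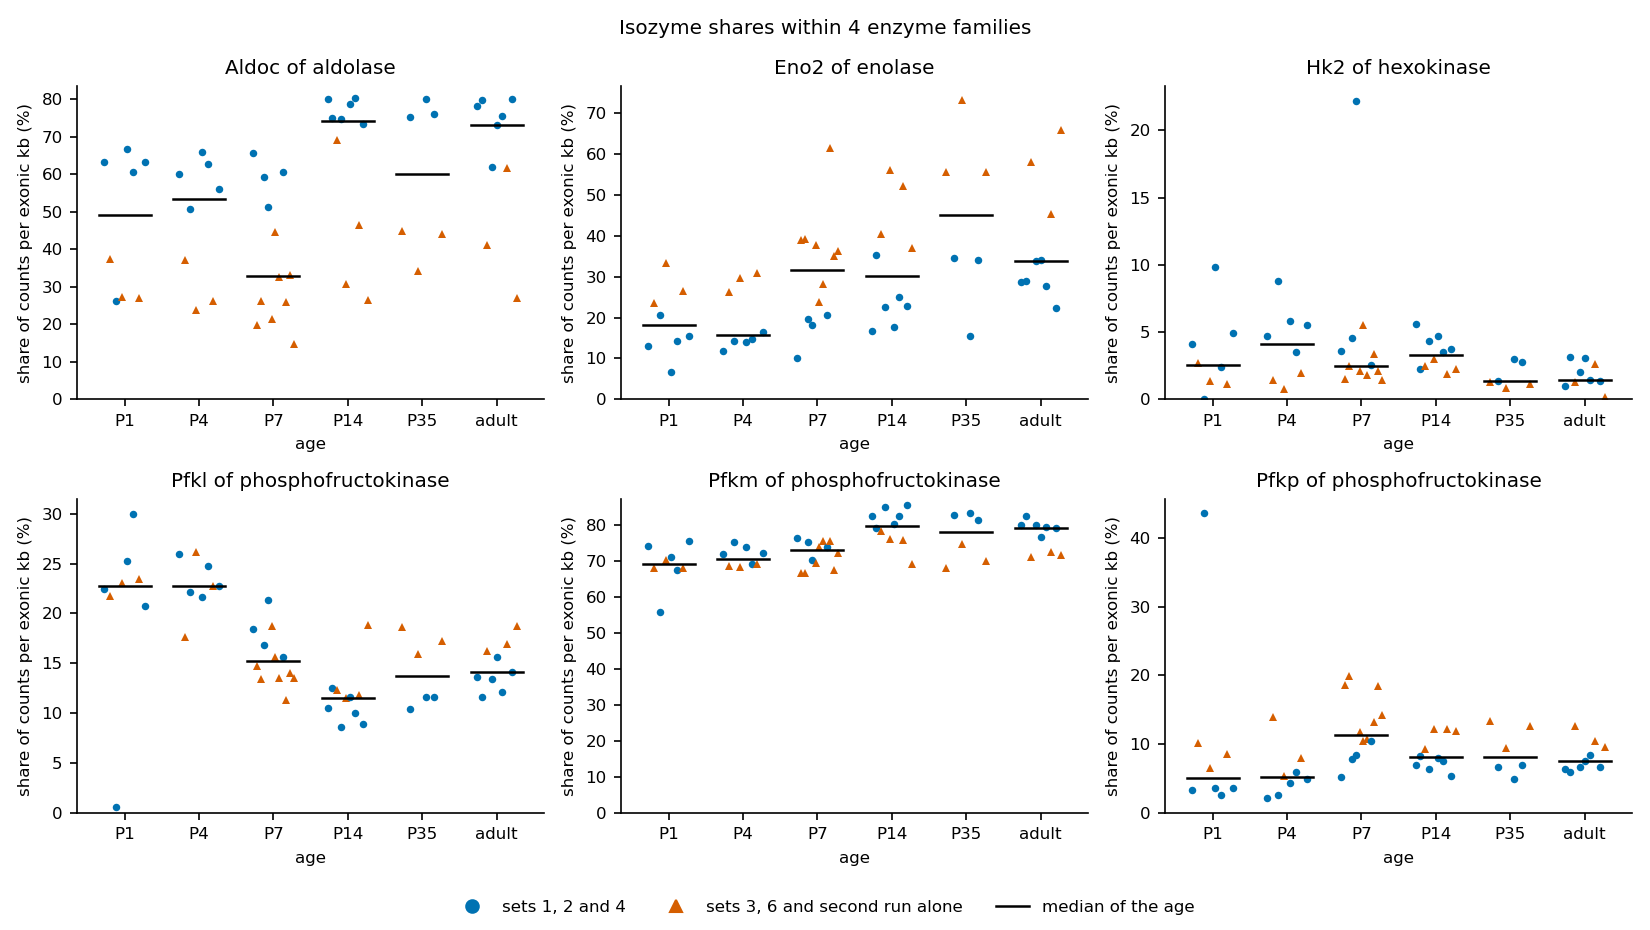
Share of each isozyme in its family, in percent of counts per exonic kilobase, in the 53 libraries by age. Symbols mark the 2 groups of sets and bars are medians. Mean Aldoc shares of sets 3, 6 and the second run alone (30.6% at P1 and 43.2% in adults) lie below those of the other sets (56.0 and 74.9%), while single libraries such as P1 female 4 (26.3%) overlap.

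Members also differed between replicate sets. Over the 6 sets (the second run alone counted as 1), all 10 members differed, where 69.1% of all genes did. Against set 1, set 3 was higher in 7 members and lower in 1, where 28.2% of genes were higher and 24.8% lower. Aldoc was the lower one (log2 -1.54, SE 0.24), while Eno2 (2.08, SE 0.20), Pfkp (1.96, SE 0.22), Hk1 (1.83, SE 0.17), Pkm (0.92, SE 0.12), Pfkl (0.80, SE 0.29), Pfkm (0.59, SE 0.21) and Aldoa (0.42, SE 0.15) were higher. Set 6 was higher in Eno2 (1.59, SE 0.23) and Hk1 (0.93, SE 0.20) and lower in Aldoc (-2.37, SE 0.29) and Eno1 (-0.60, SE 0.18), where 17.2% of genes were higher and 17.1% lower. The second run alone was higher in Hk1 (2.20, SE 0.27), Eno2 (1.57, SE 0.31), Pfkp (1.37, SE 0.35) and Pkm (0.88, SE 0.19) and lower in Aldoc (-1.81, SE 0.39), where 14.3% of genes were higher and 18.3% lower. In all 3 of these comparisons Aldoc was lower and Hk1 and Eno2 were higher. Without the 5 libraries whose name in the sample description carries the letter of the other sex, set 3 differed in 5 members. In that fit 51.9% of all genes differed between sets 3 and 1. Aldoa, Pfkl and Pfkm were then at 0.38, 0.77 and 0.54, with adjusted p of 0.0585, 0.0515 and 0.0538 by edgeR.

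The other sets differed less from set 1 in these genes. Set 4 was higher in Eno2 alone (0.63, SE 0.20, adjusted p = 0.0261 by edgeR), where 17.9% of genes changed, and that call was lost without the 3 libraries of few genes. Set 2 differed in no member, where 0% of genes changed in edgeR. There 3 members had an unadjusted p under 0.05 by edgeR (Aldoa, Aldoc and Eno1, all lower). DESeq2 and limma voom called 0 members in set 2, and 0.40 and 0% of all genes. Marker genes of other cells moved with the set. Neuronal markers were higher than in set 1 in 15 of 15 cases in set 3, 14 of 15 in set 6 and 13 of 15 in the second run alone, and astrocyte markers were lower in 15 of 15, 15 of 15 and 13 of 15. Set 4 also differed from set 1, with 6 of 15 neuronal markers higher and 1 lower, and 8 of 15 astrocyte markers lower. In set 2, 0 of 15 passed in either list, although 8 astrocyte markers had an unadjusted p under 0.05 by edgeR. The part of neuronal RNA in the levels of Hk1, Pfkp, Eno2 and Pkm in sets 3, 6 and the second run alone, and of Eno2 in set 4, was not tested.

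The levels by set show the size of this. Aldoc in adults was 8396 ± 2097 CPM (SD, n = 6) in sets 1, 2 and 4 and 3044 ± 1978 CPM (n = 3) in sets 3 and 6. Eno2 in adults was 447 ± 191 CPM in the former and 1239 ± 416 CPM in the latter, without overlap (267 to 802 against 953 to 1716). Hk1 at P7 was 99.1 ± 9.58 CPM (n = 4) in sets 1, 2 and 4 and 393 ± 160 CPM (n = 8) in the others, also without overlap. In sets 1, 2 and 4 alone the log2 difference from P1 to adult was 3.36 for Aldoc and 3.05 for Eno2, and in sets 3, 6 and the second run alone it was 3.28 and 3.12.

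Between the sexes no member differed as a mean over the ages in edgeR, DESeq2 or limma voom, and 0 members had an unadjusted p under 0.05. Of all genes, 0.0284, 0.478 and 0.0189% differed in these 3 tools in that order. The differences ran from -0.14 for Pfkl to -0.02 for Eno2 on the log2 scale (female minus male), with SE from 0.08 to 0.28. No member passed for a sex difference that varied with age in any of the 3 tools. Of all genes, 0% passed in edgeR and limma voom and 0.0095% in DESeq2. Eno2 had an unadjusted p of 0.0174 by edgeR. At P7, the age with most libraries, Eno2 ranged from 74.3 to 509 CPM in 8 females (median 284) and from 108 to 751 CPM in 4 males (median 548). The groups overlap, and the log2 difference of -0.92 (SE 0.28) had an unadjusted p of 0.00197 and an adjusted p of 0.632 by edgeR, where 0% of genes passed. Aldoa and Pfkp also had an unadjusted p under 0.05 there (log2 -0.46 and -0.78). With no term for the set other than that for the second run alone, the value of Pfkp was -0.20. In 5 of the 12 libraries at P7 the Y-linked genes go against the label. At P7, 8 of 10 oligodendrocyte markers and 6 of 15 neuronal markers had an unadjusted p under 0.05 as well, and their part was not tested. DESeq2 and limma voom called 0 members at P7 too, where they called 0.355 and 0% of all genes. Without the 12 libraries whose Y-linked genes go against the label, edgeR called 0 members in all 3 of these comparisons as well.

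Of 21 other genes of glucose uptake, glycolysis and its control, all of them measured, 10 rose from P1 to adult and 3 fell. Of all genes tested, 21.8% were higher in adults and 19.5% were lower. The median log2 difference of the 21 was 0.45, against 0.06 over all genes. The clearest rises were those of the housekeeping steps. Gpi1, which turns glucose 6-phosphate into fructose 6-phosphate, rose by 1.67 (log2, adjusted p = 1.51e-11), and Tpi1, which interconverts the triose phosphates, by 1.64 (adjusted p = 2.96e-12). Pgk1 and Pgam1, which act between the triose phosphates and enolase, rose by 0.95 and 0.88. Hkdc1, a hexokinase-like gene next to Hk1, rose by 4.71 (adjusted p = 1.83e-07) from a mean of 0.38 ± 0.27 CPM (n = 8) to 9.29 ± 5.16 CPM (n = 9). Pgam2, the muscle form of phosphoglycerate mutase, rose by 2.00. Among those that fell were the regulator Pfkfb1 and Pklr, the pyruvate kinase of liver and red cells, named here after their values were seen. Both were scarce, at or below 3.15 CPM in every P1 library. Pklr had 0 counts in all 9 adult libraries, where 3 counts over all 9 would be 0.0145 CPM.

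Across the 53 libraries the members fell into unlike patterns. By Pearson correlation of log2 CPM among 11111 genes, those most like Aldoc were Csrp1 (0.976), Fbxo2 (0.968) and Sdsl (0.964), and those most like Eno2 were Dnm1 (0.973), Pacsin1 (0.970) and Kcnab2 (0.968). Pfkp was most like Dlgap2 (0.920), Tuba4a (0.915) and Cnksr2 (0.913). The scarce Hk2 was most like Ighmbp2 (0.816) and Myo9b (0.788). Among members, the correlation was 0.873 for Aldoa with Eno2, 0.868 for Pfkp with Eno2, 0.245 for Aldoc with Eno2 and -0.303 for Aldoc with Hk1. These values are descriptions over libraries that share age, set and depth.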

How the data were processed

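Whole-number counts per gene were deposited by the authors in 1 table of 21118 genes and 53 libraries, not normalized. Reads were handled with CASAVA, HISAT2, SAMtools and featureCounts on GRCm38.p5, per the submitters' processing notes. The sources used here do not give versions, the release of the annotation, whether counting used strand, or a filter on genes, although libraries were strand-marked per the labels' protocols. At P7, females 6 and 10 and males 2 and 6 have reads of 2 runs in 1 column each.

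The test was the robust quasi-likelihood F test of edgeR 4.0.16 (R 4.3.3) with TMM scaling, in 1 model of age, sex, their interaction and the replicate set, and age comparisons are means of the sexes. No gene was lost to edgeR's filter on low counts (0 removed). Adjusted p-values are Benjamini-Hochberg values over 21118 genes with a threshold of 0.05, and SE are on the log2 scale. Levels are CPM on TMM-scaled library sizes. With 1 animal per library, p-values measure the spread between animals. Shares are from counts per kilobase of exon (GENCODE M21, in which 99.54% of gene identifiers were found), as log2 ratios with 0.5 added to each count, tested by exact two-sided permutation within sets between P1 and adult and adjusted over 6 shares. The limit that a count of 0 allows (3 counts) covers counting error only.

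Pairing by set was checked on deviations from group means. Libraries of the same set in different groups had a median correlation of 0.577 (223 pairs, 95.1% of them over 0.1), against -0.152 for different sets (1055 pairs), so the set stayed in the model. The model was also run on simulated counts with made changes between P1 and adult, and the outcome is not reported here.

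Members, lists and tests were chosen with earlier results of these data known. Named were all 10 members, up to 6 other genes of the pathway by the smallest adjusted p from P1 to adult, and for Aldoc, Hk2, Pfkp and Eno2 the 3 genes of highest correlation with a mean of at least 5 CPM. Of the genes so named or counted, 2 are not reported here by name. Alternatives were DESeq2 1.42.0, its size factors, limma 3.58.1 (voom), other filters, other designs, other lengths and libraries left out.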

Additional observations from a re-analysis of the deposited data

Results flagged for a closer look

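At each age but P7, the highest and lowest value were compared with the others. The measure was the gap to the nearest library over the range (Dixon's ratio, 95% critical value). Groups of 4 to 10 libraries could be tested, and P7 with 12 was not. Of 80 groups of levels and shares tested, 6 values stood apart, and chance alone flags about 5% of groups.

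Adult female 3 was the highest of 9 adult libraries for Pfkm at 656 CPM, with the others from 276 to 462 CPM, and for Pfkp at 466 CPM, with the others from 96.7 to 265 CPM. It is a library of set 3 whose Y-linked sum of 7.96 CPM goes against its label. At P1, 3 of the values belonged to P1 female 4, the library with the fewest genes detected. Its phosphofructokinase message was 0.588% Pfkl, 55.8% Pfkm and 43.6% Pfkp, while the other 7 P1 libraries held 20.7 to 30.0% Pfkl, 67.5 to 75.7% Pfkm and 2.53 to 10.2% Pfkp. At P14 the Pfkl share of P14 male 6 was 18.8%, above the 8.64 to 12.5% of the other 9 libraries. The part of depth or of other cells in these values was not tested.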

How the results depend on the processing

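The setting with no filter was left out, because it equals the model itself (0 genes were filtered). Of 516 values computed under alternatives, 459 were scored the same, and of 2593 with 1 library left out, 2553 were. A log2 difference or ratio was scored the same if it kept its direction and side of the threshold. A count of genes was scored the same if it stayed near that of the model, so single calls could be lost. For example, counts of 6 to 9 members changed over the 6 ages, against 9 in the model, were all scored the same. The alternatives by groups of sets, by Y-linked genes and by coding-transcript length were chosen after seeing the data. The cause of the changes below was not tested.

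The replicate block was left out of the model, with only the term for the second run alone kept. No member passed over all steps, from P4 to P7 or from P7 to P14, against 3, 2 and 1 with the block. Of all genes, 0.15% passed from P4 to P7 and 0.019% from P7 to P14 in that fit. The log2 difference of Hk2 from P1 to adult was -0.082 there, and the Aldoc ratio stayed at 1.16 with an adjusted exact p of 0.127. Over all genes, 28.1% passed from P1 to adult without the block.

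DESeq2 called 5 members over all steps, with 0.60 to 7.57% of all genes called at single steps. From P1 to P4 it called 2, where 3.18% of all genes passed. With age and sex as additive terms, 1 passed from P4 to P7 (0.59% of all genes) and Hk2 was at -0.019. Without libraries whose Y-linked genes go against the label, 1 passed over all steps and 0 from P4 to P7 (0% of all genes). There 0 differed between sets 4 and 1 (10.8% of genes tested), and Hk2 was at -0.043. Without libraries with the letter of the other sex, 5 differed between sets 3 and 1 (51.9% of genes tested), against 8. Between sets 4 and 1, 0 differed there (15.2% of genes tested), against 1. That last count was 2 with a mean of at least 5 CPM (29.6% of genes tested) and 0 without the 3 low-gene libraries (12.3%). Without those 3, Hk2 was at -0.20, and the ratios of Hk2, Pfkl and Pfkp were -1.08, -0.87 and 0.77.

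In sets 1, 2 and 4 alone, 1 member passed from P4 to P7, where 0.0096% of genes tested did. In these sets 7 other glycolysis genes changed from P1 to adult, where 27.4% of genes tested did, against 13 with all sets. The ratios of Hk2 and Pfkl turned to 0.061 and 0.052 in these sets. In sets 3, 6 and the second run alone, 0 members passed over all steps, 0 from P4 to P7 and 0 from P7 to P14, where 0% of all genes passed at each step. From P1 to adult, 6 other glycolysis genes changed in these sets, where 15.8% of genes tested did. The ratios there were 0.77 for Aldoc (adjusted exact p = 0.4), 0.21 for Pfkm and 1.77 for Eno2 (adjusted exact p = 0.25 for both), where the smallest unadjusted p is 0.0833. Per kilobase of coding transcript the Pfkm ratio was 0.43.

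With 1 library left out, 7 to 9 members changed over the 6 ages, 9 to 9 from P1 to adult, and 2 to 5 over all steps. The steps in order of age gave 0 to 2, 1 to 2, 1 to 2, 0 to 2 and 0 to 0. Against set 1 they gave 7 to 8 in set 3, 0 to 2 in set 4, 4 to 6 in set 6 and 5 to 7 in the second run alone, and 10 to 13 other glycolysis genes changed. The change of Hk2 ran from -0.22 to 0.34, its ratio from -1.08 to 0.13, that of Pfkl from -0.87 to -0.0067 and that of Pfkp from 0.074 to 0.77. Libraries were not left out in turn for the sex by age test, for the sexes at P7 or with DESeq2. Hk2 had the lowest mean CPM of the members at each age, with 0 to 17.9 CPM in single libraries. The part of depth in its values was not tested.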

Other observations

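Gapdh, a glycolytic enzyme often used as a reference message, stood at 7.67 ± 6.67 CPM (SD, n = 8) at P1 and 12.8 ± 5.19 CPM (n = 9) in adults. Tpi1, which acts beside it in the pathway, stood at 421 ± 142 and 1277 ± 274 CPM in the same libraries. Gapdh has pseudogene copies, and how reads that match several places were counted is not given in the sources used here, so its level is uncertain.

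Slc2a1, a glucose transporter of endothelium and astrocytes, went from 10.4 ± 3.44 CPM at P1 to 28.1 ± 15.3 CPM in adults (log2 1.12, SE 0.41, adjusted p = 0.0242 by edgeR). Slc2a3, the neuronal glucose transporter, went from 9.02 ± 6.36 to 18.2 ± 9.04 CPM (log2 1.11, SE 0.46, adjusted p = 0.0491 by edgeR). Pfkfb3, which makes an activator of phosphofructokinase, was at 39.5 ± 23.1 CPM at P1 and 32.9 ± 8.31 CPM in adults (log2 -0.23, SE 0.32, adjusted p = 0.605 by edgeR). These genes were named after their values were seen.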
